A study of Mus musculus with 8 samples.

Results

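The 10 genes described here encode subunits of the mouse CCR4-NOT complex. They were the rows whose symbol was Cnot1, Cnot2, Cnot3, Cnot4, Cnot6, Cnot6l, Cnot7, Cnot8, Cnot10 or Cnot11, and all 10 of 10 were found in each of the 8 count tables, which list 27710 genes. The libraries came from lineage-depleted bone marrow, the blood stem and progenitor cells left after mature cells are removed, cultured in serum with added cytokines. The Alkbh5-deficient cells carried floxed Alkbh5 and Vav-iCre, a recombinase driven by a blood cell promoter, and the wild-type (WT) cells are labelled WT with no word on whether they carry Cre. For either genotype there were 3 fed libraries, from cells given 4-thiouridine (s4U, a nucleoside taken up into new RNA) at 100 µM for 2 h, and 1 unlabelled library, from cells with no agent. RNA of all groups went through the TimeLapse chemistry, which recodes s4U in RNA, and the labels give neither the number nor the age of the animals.

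CCR4-NOT shortens the poly(A) tails of mRNA, and loss of the tail exposes the mRNA to decapping and decay. CNOT1 is the scaffold on which a NOT module, a pair of nuclease subunits and a CNOT10-CNOT11 module assemble. The m6A reader YTHDF2 binds the complex through CNOT1 and so brings it to RNA that carries N6-methyladenosine (m6A), the mark that ALKBH5 removes. The question of the genotype comparison is whether loss of ALKBH5 alters the level of transcripts, and here it is asked of the genes of this decay machinery.

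Reads in genes totalled between 5723245 and 8615997 per library. Alkbh5 had 0, 1 and 1 counts in fed Alkbh5-deficient libraries against 1166, 1479 and 1061 in fed WT libraries, and 1 against 1263 counts in the unlabelled pair. All 10 stem and progenitor markers averaged above 1 CPM (each library's counts scaled to a common total), with a summed level of 728 to 804 CPM in Alkbh5-deficient and 713 to 881 CPM in WT fed libraries, against 765 to 793 CPM in unlabelled ones. WT fed replicate 3 stood apart: 14.2% of its counts were those of Gm26917, which made up 6.33% to 8.34% elsewhere, and it had the lowest CPM of the 8 libraries for 7 of the 10 subunits. Its megakaryocyte markers summed to 399 CPM, against 138 to 207 CPM elsewhere. Mast cell and basophil markers summed to 1020 CPM in it and 1530 CPM in WT fed replicate 1, against 496 to 689 CPM in the others. The part of these markers in its subunit values was not tested. Fed replicate 1 of both genotypes also stood apart. Reads in no gene were 37.6% of counts in the Alkbh5-deficient and 38.3% in the WT one, against 48.9% to 52.1% elsewhere. Neutrophil markers summed to 11900 and 13100 CPM in these 2 libraries, against 6810 to 8110 CPM in the other fed ones. B cell markers summed to 27 and 63.3 CPM, against 154 to 290 CPM elsewhere. Male and female RNA was present in the 2 unlabelled libraries, where Xist had 8770 counts and the Y-linked Ddx3y 511 in the Alkbh5-deficient library, against 9147 and 299 in the WT one. Each fed library showed 1 sex only, with 0 counts of Ddx3y in replicate 2 of both genotypes and at most 2 counts of Xist in the others.

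The nuclease subunits come as paralog pairs, Cnot6 with Cnot6l and Cnot7 with Cnot8, and a count assigned to the wrong paralog would blur the values below. The coding sequences of Cnot6 and Cnot6l were 73.3% identical over 1650 aligned bases, and those of Cnot7 and Cnot8 69.6% identical over 855. The longest identical run was 20 bases in either pair, and 0 of 5687 stretches of 50 bases in the longest Cnot6 transcript occurred in that of Cnot6l, as did 0 of 3839 in Cnot7 and Cnot8. The most similar 90 coding bases of each pair show how far apart the paralogs are where they are closest, with capitals for the bases that differ. They are the sense strand of GENCODE M21 transcripts (GRCm38), counted from 1 at the start codon, at coding positions 814 to 903 of Cnot6 (chromosome 11) and Cnot6l (chromosome 5) and 402 to 491 of Cnot7 (chromosome 8) and Cnot8 (chromosome 11).
Cnot6: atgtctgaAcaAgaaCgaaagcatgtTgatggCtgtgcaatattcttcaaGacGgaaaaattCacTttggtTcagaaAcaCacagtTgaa
Cnot6l: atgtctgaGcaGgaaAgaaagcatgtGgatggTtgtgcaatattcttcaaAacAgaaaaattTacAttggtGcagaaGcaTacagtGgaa
Cnot7: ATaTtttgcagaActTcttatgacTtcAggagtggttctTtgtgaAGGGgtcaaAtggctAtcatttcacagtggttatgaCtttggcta
Cnot8: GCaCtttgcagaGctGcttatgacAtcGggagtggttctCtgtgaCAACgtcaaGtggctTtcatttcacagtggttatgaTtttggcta
Even there 13 of 90 bases differed between Cnot6 and Cnot6l and 15 of 90 between Cnot7 and Cnot8, so a read that spans several of these positions differs between the paralogs. Closer copies of members exist as processed pseudogenes: Gm6158 matched Cnot1 over 903 bases at 99.8% identity, and Gm18860 matched Cnot8 over 760 bases at 97.8%. They took few counts, at 5 to 17 per fed and 6 and 4 per unlabelled library for Gm6158 and at most 3 in any library for Gm18860. These are only the reads assigned to the copies. How reads that match both a gene and its copy were handled is not stated, so Cnot1 and Cnot8 counts from these stretches are uncertain.

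Between genotypes the subunit genes did not pass the test in either direction, and the fed libraries of the genotypes overlapped for all 10. The log2 fold changes (Alkbh5-deficient over WT) ran from -0.10 for Cnot10 to 0.30 for Cnot6l, with a median of 0.10 against 0.00 over all genes. Of the 10 members 0 passed an adjusted p of 0.05 in edgeR's quasi-likelihood test, where 0.00750% of 13342 genes did, and 0 had an unadjusted p under 0.05, where 1.13% of genes did. DESeq2 and limma voom with sample weights also called 0 members, where they called 0.0150% and 0.00750% of genes. The fed groups overlapped for every member, while 2.57% of genes were higher and 3.05% lower without overlap.

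A positive value was found for 9 of the 10 members, against 50.2% of all genes. This count changed with the libraries and the fit. Without WT fed replicate 3, 6 members were positive, the median was 0.02, and the values ran from -0.08 to 0.16. Without Alkbh5-deficient fed replicate 3, or with GC offsets, 7 were positive. Without WT fed replicate 2 the median was 0.24, and Cnot6l had an unadjusted p under 0.05. The log2 CPM of the WT replicate 3 library lay below that of Alkbh5-deficient replicate 3 by 1.37 for Cnot2, while for replicates 1 and 2 Cnot2 differed by -0.02 and -0.13. Monocyte and macrophage markers had a summed level of 769 to 1380 CPM in Alkbh5-deficient and 645 to 1120 CPM in WT fed libraries, with 9 of 10 at a positive value, and their part in the subunit values was not tested.

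**Figure D1:**
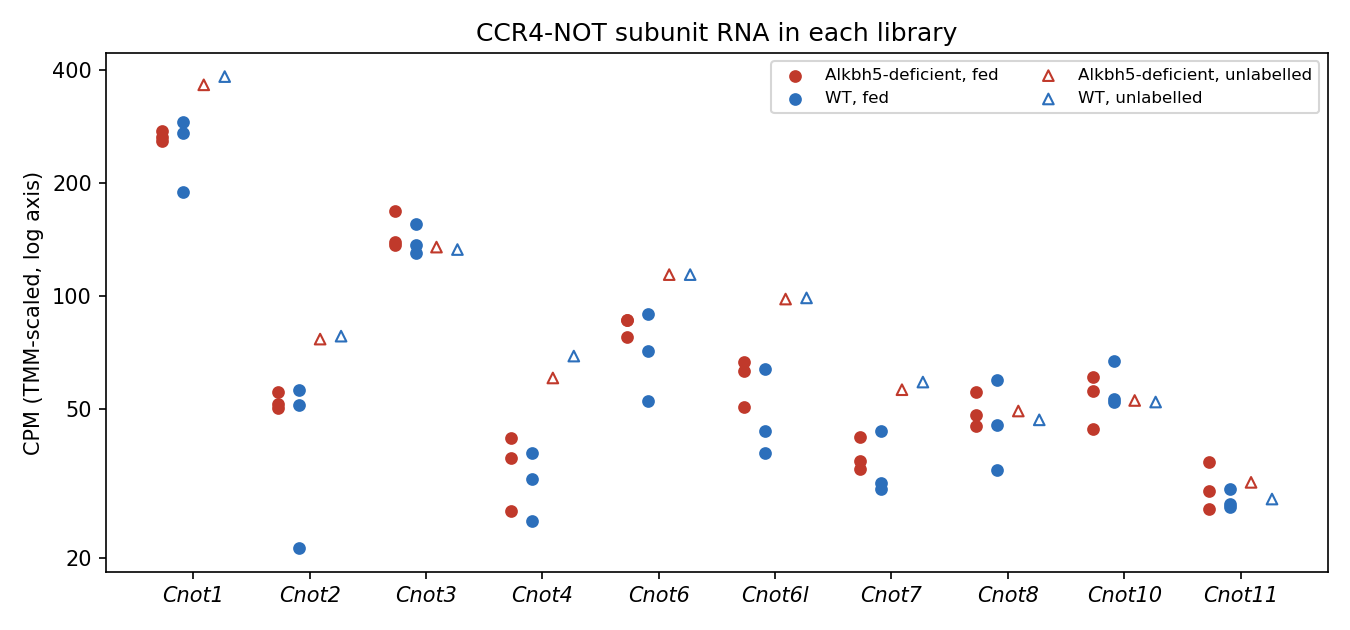
CPM of each subunit gene in each library on a log axis, with filled circles for fed and open triangles for unlabelled libraries. The fed genotypes overlap for all 10 genes, and the unlabelled libraries lie above all fed ones for Cnot1, Cnot2, Cnot4, Cnot6, Cnot6l and Cnot7.

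Cnot1 (ENSMUSG00000036550.16, chromosome 8, 95719451 to 95807464, minus strand) encodes the scaffold. It had 266, 259 and 276 CPM in fed Alkbh5-deficient libraries against 273, 291 and 189 CPM in fed WT libraries, and 366 against 385 CPM in the unlabelled pair. The Alkbh5-deficient values lay within the WT range, and the unlabelled values were above every fed one. The log2 fold change between genotypes was 0.08 ± 0.19 (SE), with an interval of -0.36 to 0.53 (95%). CPM here are scaled by TMM, edgeR's library size normalization, over all 8 libraries.

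The NOT module subunits CNOT2 and CNOT3 bind the C-terminal part of CNOT1. Cnot2 (ENSMUSG00000020166.15, chromosome 10, 116485161 to 116581511, minus strand) had 50.2, 51.4 and 55.3 CPM in fed Alkbh5-deficient libraries, against 51.0, 56.0 and 21.2 CPM in fed WT libraries. The unlabelled libraries had 76.7 CPM without Alkbh5 and 78.1 CPM in WT. A single WT library at 21.2 CPM thus sets the genotype difference, whose log2 fold change was 0.28 ± 0.33 (SE, interval -0.47 to 1.02), and without that library the value was -0.03. Cnot3 (ENSMUSG00000035632.16, chromosome 7, 3645268 to 3661109, plus strand) had 169, 139 and 137 CPM in fed Alkbh5-deficient libraries against 156, 130 and 137 CPM in fed WT libraries, and 135 against 133 CPM in the unlabelled pair. All 8 values of Cnot3 lay within 130 to 169 CPM, with a genotype log2 fold change of 0.07 ± 0.16 (SE, interval -0.29 to 0.42).

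CNOT4 is an E3 ubiquitin ligase that in mammals is only loosely attached to the complex. Cnot4 (ENSMUSG00000038784.13, chromosome 6, 35022065 to 35133724, minus strand) had 36.9, 26.7 and 41.8 CPM in fed Alkbh5-deficient libraries against 32.5, 38.1 and 25.1 CPM in fed WT libraries. Its unlabelled values were 60.4 CPM without Alkbh5 and 69.1 CPM in WT. The fed genotypes were interleaved, with a log2 fold change of 0.13 ± 0.24 (SE, interval -0.41 to 0.68), and both unlabelled values were higher than any fed value.

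CNOT6 and CNOT6L are deadenylases of the EEP nuclease family, related to yeast Ccr4. Cnot6 (ENSMUSG00000020362.13, chromosome 11, 49671503 to 49712723, minus strand) had 86.3, 77.7 and 86.3 CPM in fed Alkbh5-deficient libraries against 71.1, 89.7 and 52.4 CPM in fed WT libraries, and 114 CPM in both unlabelled libraries. Cnot6l (ENSMUSG00000034724.18, chromosome 5, 96070333 to 96164171, minus strand) had 63.0, 50.4 and 66.5 CPM in fed Alkbh5-deficient libraries against 43.5, 63.8 and 38.2 CPM in fed WT libraries, and 98.1 against 98.8 CPM in the unlabelled pair. WT replicate 2 lay above all Alkbh5-deficient values for Cnot6 and among them for Cnot6l, while the other WT replicates were lower than every Alkbh5-deficient one for both genes. Cnot6l had the smallest genotype p among the members, with a log2 fold change of 0.30 ± 0.23 (SE, interval -0.23 to 0.82, unadjusted p = 0.231, adjusted p = 1 in edgeR), and Cnot6 was at 0.22 ± 0.21 (SE, interval -0.26 to 0.70). With GC offsets these values were 0.09 for Cnot6l and 0.07 for Cnot6.

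CNOT7 and CNOT8 are deadenylases of the DEDD family, which bind CNOT1 directly and hold the EEP subunit. Cnot7 (ENSMUSG00000031601.16, chromosome 8, 40492540 to 40515847, minus strand) had 34.6, 36.2 and 42.0 CPM in fed Alkbh5-deficient libraries against 31.6, 43.5 and 30.6 CPM in fed WT libraries, and 56.2 against 58.9 CPM in the unlabelled pair. Cnot8 (ENSMUSG00000020515.13, chromosome 11, 58104153 to 58118594, plus strand) had 55.4, 48.1 and 44.9 CPM in fed Alkbh5-deficient libraries against 59.5, 45.3 and 34.3 CPM in fed WT libraries, and 49.3 against 46.7 CPM in the unlabelled pair. The unlabelled libraries stood above the fed ones for Cnot7 and inside the fed range for Cnot8. Between genotypes both genes were at a log2 fold change of 0.09, with SE 0.20 for Cnot7 (interval -0.38 to 0.55) and 0.22 for Cnot8 (interval -0.42 to 0.60). Exons of Cnot7 overlap those of Zdhhc2 on the opposite strand over 247 bases. The same holds for Cnot3 with Leng1 over 433 bases, Cnot2 with 5330438D12Rik over 232 and Cnot1 with 4930513N10Rik over 132. No source used here states whether the counting used strand, so reads from these stretches are uncertain.

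CNOT10 and CNOT11 form a module at the N-terminal end of CNOT1. Cnot10 (ENSMUSG00000056167.7, chromosome 9, 114585878 to 114640184, minus strand) had 44.2, 60.8 and 55.8 CPM in fed Alkbh5-deficient libraries against 52.1, 53.0 and 66.9 CPM in fed WT libraries, and 52.6 against 52.1 CPM in the unlabelled pair. Its genotype log2 fold change was -0.10 ± 0.19 (SE, interval -0.52 to 0.33), the 1 negative value among the members, and WT replicate 3, low for other subunits, was its highest library. Cnot11 (ENSMUSG00000003135.15, chromosome 1, 39534992 to 39546889, plus strand) had 36.0, 27 and 30.2 CPM in fed Alkbh5-deficient libraries against 30.6, 27.8 and 27.3 CPM in fed WT libraries, and 31.8 against 28.7 CPM in the unlabelled pair. Its 8 values spanned 27 to 36.0 CPM, with a genotype log2 fold change of 0.12 ± 0.18 (SE, interval -0.30 to 0.53).

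The unlabelled libraries, 1 of either genotype and so with no replicate check, gave ratios near 100% for most members. The Alkbh5-deficient over WT ratio ran from 87.4% for Cnot4 to 111% for Cnot11. Its counting interval (95%, exact) excluded 100% for Cnot4, at 77.5% to 98.6%, and for Cnot1, at 94.8% with an interval of 90.2% to 99.7%. These intervals cover counting error only. Over 13762 genes this pair had a chi-square per gene of 3.12, so it differed by more than counting error. The share of all genes whose interval excludes 100% was not counted, so these intervals do not set Cnot4 and Cnot1 apart from other genes. In the fed libraries the log2 fold changes of Cnot4 and Cnot1 were positive, at 0.13 and 0.08, and neither passed the test. The interaction of genotype and s4U called 0 members by edgeR, DESeq2 or voom (0 with an unadjusted edgeR p under 0.05), and by edgeR 0% of 14988 genes passed and 0.160% had an unadjusted p under 0.05. Member values of the interaction ran from -0.11 to 0.33, and that of Cnot4 was 0.33 ± 0.46 (SE).

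**Figure D2:**
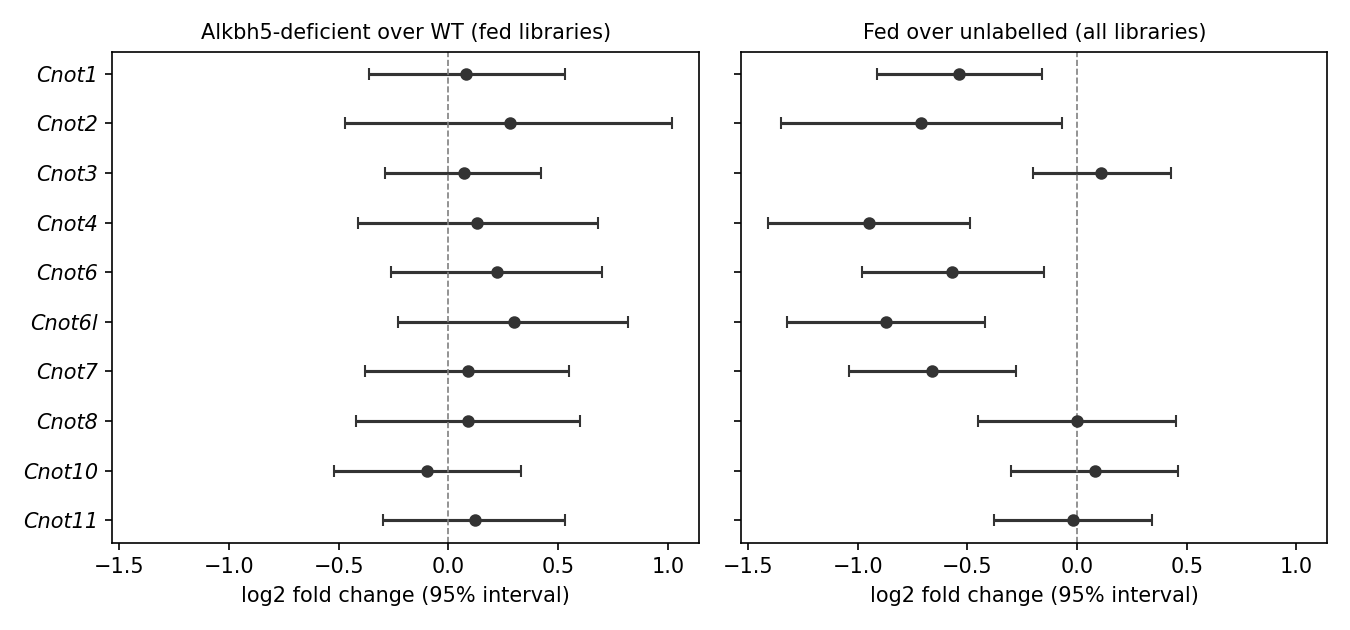
Log2 fold change of each subunit gene with its 95% interval, Alkbh5-deficient over WT in the fed libraries on the left and fed over unlabelled in all libraries on the right. Every genotype interval spans 0, while the s4U intervals of Cnot1, Cnot2, Cnot4, Cnot6, Cnot6l and Cnot7 lie below 0.

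Fed libraries were set against unlabelled ones, adjusting for genotype, to ask whether the subunit levels differ with s4U feeding. This comparison shares its fed libraries with that of the genotypes. Values of 6 members were lower in fed libraries and those of the other 4 lay close to 0, although 0 of the 10 passed an adjusted p of 0.05 in edgeR, where 0.0281% of 14232 genes did. Cnot4 was at 51.8% of the unlabelled level, Cnot6l at 54.8%, Cnot2 at 61.2%, Cnot7 at 63.4%, Cnot6 at 67.6% and Cnot1 at 68.9%. In these 6 members the 2 unlabelled libraries lay above all 6 fed ones, which held for 16.6% of all genes, and each had an unadjusted p under 0.05 with a negative value, as did 10.3% of all genes. Feeding cannot be told apart from the source of the cells, since RNA of either sex was in the unlabelled libraries and of 1 sex in each fed one. In bulk RNA, fewer cells of a type and less RNA per cell cannot be told apart either.

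Among the 6, Cnot4 had the lowest value, a log2 fold change of -0.95 ± 0.20 (SE, interval -1.41 to -0.49, edgeR adjusted p = 0.162). Cnot6l was at -0.87 ± 0.20 and Cnot7 at -0.66 ± 0.17 (SE, edgeR adjusted p = 0.162 for both). Without the low-count filter edgeR called Cnot4 lower (adjusted p = 0.0497), beside 0.0808% of 26006 genes. DESeq2 called Cnot4, Cnot6l and Cnot7 lower (adjusted p = 0.0121, 0.0179 and 0.0363), where it called 2.96% of 9815 genes lower. Cnot2 was at -0.71 ± 0.28, Cnot6 at -0.57 ± 0.18 and Cnot1 at -0.54 ± 0.17 (SE, edgeR adjusted p = 0.213, 0.168 and 0.165), and limma voom with sample weights called all 6 lower, as it did 13.0% of genes. The other members were at 0.11 ± 0.14 for Cnot3, 0.08 ± 0.17 for Cnot10, 0.00 ± 0.20 for Cnot8 and -0.02 ± 0.16 for Cnot11 (SE). Cnot9, the subunit that binds the microRNA silencing protein TNRC6 and is not among the 10, was at -0.05 ± 0.14 (SE). For the 6 lower members, values were -0.44 to -0.77 within the Alkbh5-deficient libraries alone and -0.62 to -1.11 within the WT libraries alone. Both unlabelled libraries lay above all fed ones for these 6, so a negative sign in each genotype was given beforehand. It is no independent check, and each genotype alone has 1 unlabelled library.

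GC content moved with these values. The longest transcripts of the 6 had a GC content of 37.0% to 45.8%, and those of the other 4 had 48.4% to 51.8%. Over all tested genes the fed over unlabelled log2 fold change also moved with GC, with a median of -0.61 in the 929 genes at 35% to 40% GC, -0.31 in the 2899 at 40% to 45%, -0.05 in the 3756 at 45% to 50% and 0.17 in the 3615 at 50% to 55%. Cnot7 (38.2% GC) and Cnot6 (39.8% GC) thus lay close to the median of genes with like GC. Cnot4 (37.0% GC) lay below the lower quartile of its bin, which was -0.88, and Cnot6l (37.6% GC) lay almost at it. Cnot1 (45.8% GC) and Cnot2 (43.9% GC) also lay below the lower quartiles of theirs (-0.29 and -0.56). Within a fed library, Spearman's rho between GC and the deviation of a gene's log2 CPM from its mean was between -0.28 and 0.59, the highest being WT replicate 3. It was -0.53 in the Alkbh5-deficient and -0.51 in the WT unlabelled library. These rho are across 14088 genes, which are not independent replicates.

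**Figure D3:**
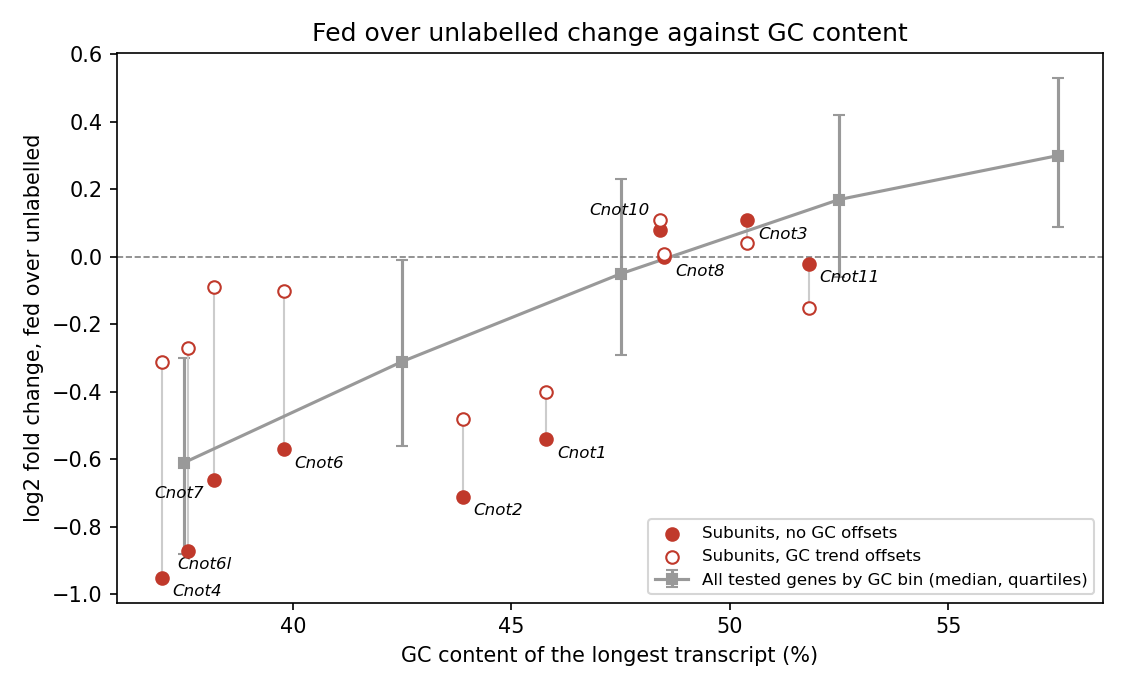
Fed over unlabelled log2 fold change of each subunit gene against the GC content of its longest transcript, without (filled) and with (open) offsets for each library's GC trend. Grey squares give the median and quartiles of all tested genes in GC bins of 5 percentage points; the subunits below 46% GC sit under 0 and move up with the offsets.

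Offsets for the GC trend of each library take out any fed against unlabelled difference that runs with GC, whatever its source. With these offsets the median of the 10 members was -0.12 in place of -0.55. Cnot4 was then at -0.31 ± 0.16, Cnot6l at -0.27 ± 0.13, Cnot6 at -0.10 ± 0.11 and Cnot7 at -0.09 ± 0.12 (SE). Cnot2 was at -0.48 ± 0.23 and Cnot1 at -0.40 ± 0.13, with an edgeR adjusted p of 0.254 for Cnot1. Only Cnot1 among the 10 then had an unadjusted p under 0.05, beside 6.11% of all genes that did with a negative value. With offsets for exon length the median was -0.31, with Cnot1 at -0.17 ± 0.16 and Cnot4 at -0.74 ± 0.19 (SE). The length used was that of all annotated exons together, and at 17.2 kb Cnot1 has the most among the members. Its longest transcript is 8.39 kb, and offsets by that length were not fitted. Neutrophil markers also moved with feeding: 10 of 10 had a positive value, as did 52.0% of all genes, and 5 of them had an unadjusted p under 0.05, as did 9.97% of all genes with a positive value. DESeq2 called 2 of these markers higher, where it called 3.52% of genes, and edgeR called 0. Their summed level was 7670 to 11900 CPM in Alkbh5-deficient and 6810 to 13100 CPM in WT fed libraries, against 5100 to 5900 CPM in unlabelled ones. Replicate 1 held the highest fed value in both genotypes, and the other fed libraries had 6810 to 8110 CPM. The part of these markers in the subunit values was not tested.

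The ratios of the nuclease paralogs overlapped between the fed genotypes and did not overlap between fed and unlabelled libraries. How often the ratios of other gene pairs separate in this way was not counted. Of single genes, 16.6% were lower in all fed libraries than in both unlabelled ones. The GC content was 38.2% for Cnot7 and 48.5% for Cnot8, and 39.8% for Cnot6 and 37.6% for Cnot6l. The Cnot7 over Cnot8 ratio of counts was 0.625, 0.752 and 0.936 in fed Alkbh5-deficient libraries and 0.532, 0.959 and 0.892 in fed WT libraries, against 1.14 and 1.26 in the unlabelled Alkbh5-deficient and WT libraries. Cnot8 thus had more counts than Cnot7 in all 6 fed libraries and fewer in both unlabelled ones. The difference of the mean log2 ratio was -0.65 between fed and unlabelled libraries (exact two-sided permutation test, p = 0.0714, the smallest it can give, adjusted p = 0.143 over 4 tests). Between genotypes it was -0.02 (exact p = 0.9), in a design that cannot go below 0.1. In the fit with GC offsets the log2 fold change of Cnot7 minus that of Cnot8 was -0.10, in place of -0.66 without them.

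The Cnot6 over Cnot6l ratio was 1.37, 1.54 and 1.30 in fed Alkbh5-deficient libraries and 1.64, 1.41 and 1.37 in fed WT libraries, against 1.17 and 1.15 in the unlabelled Alkbh5-deficient and WT ones. Every fed ratio was above both unlabelled ratios, and the fed genotypes overlapped. The mean log2 ratio differed by 0.31 between fed and unlabelled libraries (exact permutation p = 0.0714, adjusted p = 0.143) and by -0.07 between genotypes (exact p = 0.5). With GC offsets the difference of the 2 log2 fold changes was 0.17, in place of 0.30.

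**Figure D4:**
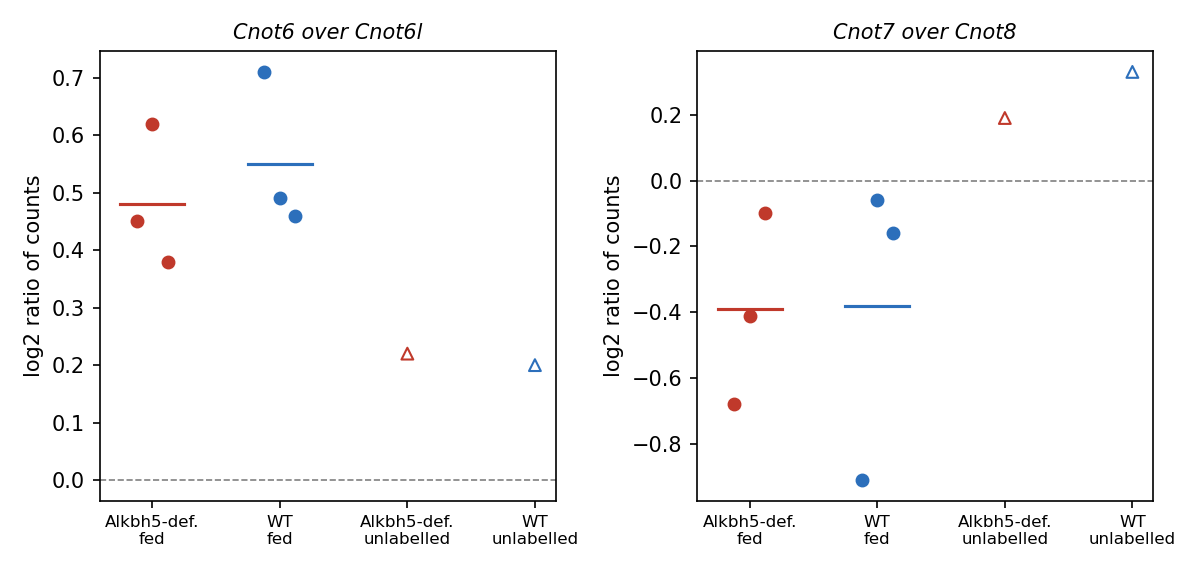
Log2 ratio of counts of the nuclease paralogs in each library, with bars at the mean of each fed group of 3. The Cnot7 over Cnot8 ratio lies below 0 in all 6 fed libraries and above 0 in both unlabelled ones, and the Cnot6 over Cnot6l ratio is above 0 in all 8.

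Set per kb of exon sequence, the members differed in level by up to 5.93 times in the fed libraries, from Cnot3 at 20.3 CPM per kb to Cnot4 at 3.43 CPM per kb. In fed Alkbh5-deficient libraries the order was Cnot3 (20.8 ± 2.48), Cnot8 (18.8 ± 2.04), Cnot1 (15.6 ± 0.517), Cnot2 (12.8 ± 0.657) and Cnot6 (12.6 ± 0.753 CPM per kb, SD, n = 3). Below them came Cnot11 (8.86 ± 1.30), Cnot10 (8.10 ± 1.29), Cnot7 (6.46 ± 0.667), Cnot6l (5.81 ± 0.819) and Cnot4 (3.59 ± 0.785 CPM per kb, SD, n = 3). Neighbours in this order that did not differ beyond their spread were Cnot3 and Cnot8, Cnot2 and Cnot6, Cnot11 and Cnot10, and Cnot7 and Cnot6l. Fed WT libraries held the same top 3 and bottom 3, with Cnot3 at 19.8 ± 1.85 and Cnot4 at 3.26 ± 0.662 CPM per kb, and there only Cnot11 and Cnot7 among neighbours differed beyond their spread.

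In the unlabelled libraries Cnot1 came first, at 21.3 CPM per kb without Alkbh5 and 22.4 CPM per kb in WT, and Cnot4 last, at 6.18 and 7.07 CPM per kb. The levels and their order depend on the length used. With the longest transcript (3.94 kb) in place of all annotated exons (9.78 kb), Cnot4 was at 15.3 CPM per kb without Alkbh5 and 17.5 CPM per kb in WT in the unlabelled libraries, above Cnot6l, Cnot7, Cnot10 and Cnot11, and Cnot11 came last. For Cnot1, which was first there under both lengths, the longest transcript is 8.39 kb against 17.2 kb of exons, and with it Cnot1 was at 31.8 ± 1.06 CPM per kb in Alkbh5-deficient and 29.9 ± 6.52 CPM per kb in WT fed libraries (SD, n = 3 each), next to Cnot3 at 34.3 ± 4.07 and 32.6 ± 3.05. Per kb of exons, the sum of Cnot7 and Cnot8 was 25.2 ± 1.52 CPM per kb in Alkbh5-deficient and 23.6 ± 4.94 in WT fed libraries, and that of Cnot6 and Cnot6l 18.4 ± 1.56 and 15.5 ± 4.08 (SD, n = 3 each). Among 14088 tested genes the members' levels lay between the 39.5th percentile (Cnot4) and the 81.6th (Cnot3).

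**Figure D5:**
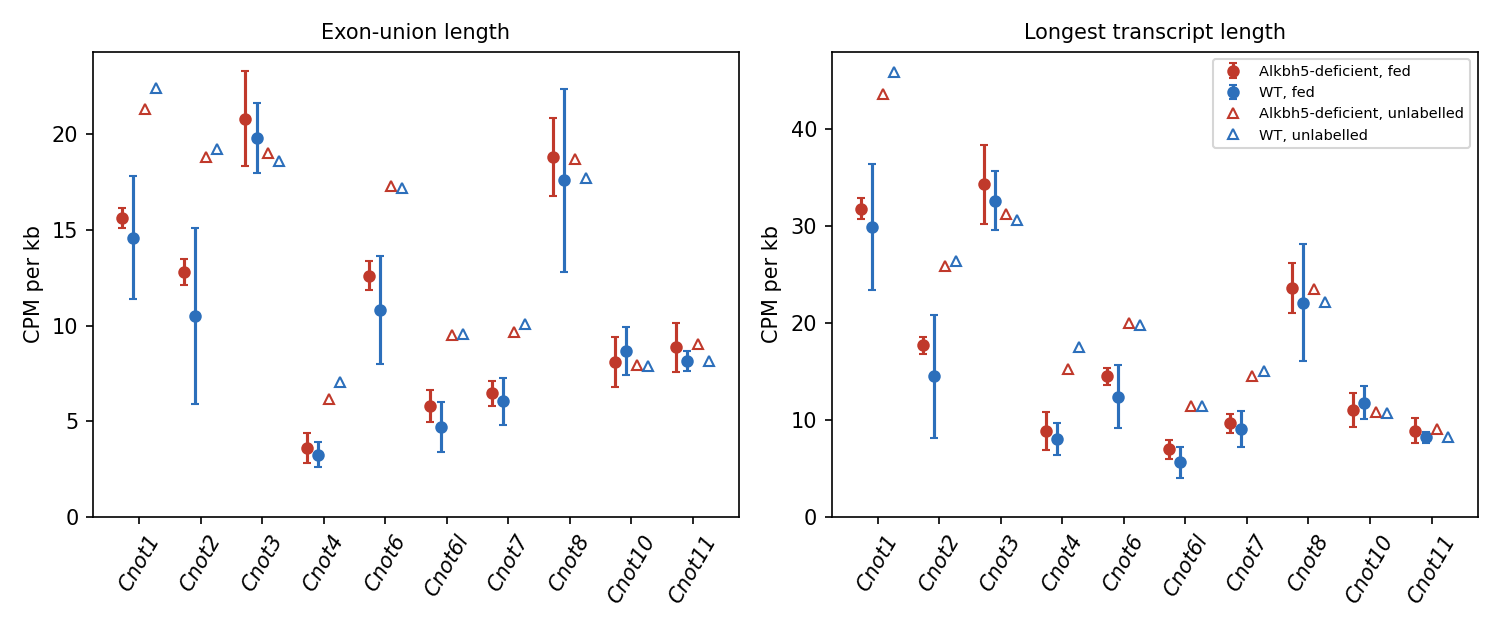
CPM per kb of each subunit gene, by all annotated exons on the left and by the longest transcript on the right, with the mean and SD of 3 fed libraries per genotype and single unlabelled libraries as triangles. Cnot3, Cnot8 and Cnot1 are the highest in the fed libraries and Cnot4 and Cnot6l among the lowest under both lengths.

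The motif GGACT, 1 form of the sequence that the m6A writer methylates, was searched on the sense strand of the longest transcripts, as a description. Cnot1 and Cnot6 held 11 copies each, Cnot3 held 7, and Cnot4 held 0, against a share of 92.4% of 16456 protein-coding genes with at least 1 copy. Per kb, Cnot6 had the highest density at 1.92, above 87.3% of coding genes, and the median over coding genes was 1.05. Cnot3 at 1.616 and Cnot1 at 1.311 were also above this median. The other members were below it, at 1.029 for Cnot7, 1.015 for Cnot2, 0.862 for Cnot11 and 0.822 for Cnot10. Cnot8 was at 0.476, Cnot6l at 0.350 and Cnot4 at 0.

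Genes that work beside CCR4-NOT were set beside the members. Of 11 tested partners (Cnot9, the TOB and BTG proteins and related nucleases), 16 recruiting factors, 8 genes of other deadenylases and poly(A) binding, 16 of decapping and 5′ decay and 15 of the exosome and Ski complex, 0 passed in edgeR (0 with an unadjusted p under 0.05) and 0 in DESeq2. Their median genotype log2 fold changes were -0.13, 0.14, 0.03, 0.04 and -0.12, against 0.00 over all genes. Ythdf2 had 107, 85.8 and 97.4 CPM in fed Alkbh5-deficient libraries against 86.8, 82.6 and 73.7 CPM in fed WT libraries, which overlap, with a log2 fold change of 0.25 ± 0.15 (SE, adjusted p = 1, edgeR). In list order, the genes with the smallest p were Btg2 at -0.25 ± 0.19, Rc3h2 at 0.40 ± 0.22, Pabpn1 at -0.43 ± 0.23, Lsm4 at -0.39 ± 0.25 and Exosc4 at -0.28 ± 0.22 (SE, edgeR adjusted p = 1 for each).

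With s4U feeding the same lists had medians of -0.01, -0.26, -0.03, -0.01 and -0.02, against 0.03 over all genes, and 0 of their genes passed in edgeR. Recruiting factors, the proteins that bring the complex to an mRNA, included 8 genes of 16 that were negative at an unadjusted p under 0.05, beside 10.3% of all genes. At the same threshold 1 of the 16 was positive, beside 9.97% of all genes, and DESeq2 called 4 of the 16 lower. Rc3h2, a roquin that binds stem-loops, had 60.3, 67.4 and 85.8 CPM in Alkbh5-deficient and 52.3, 65.5 and 43.1 CPM in WT fed libraries. Its unlabelled values, 110 CPM without Alkbh5 and 121 CPM in WT, were above all of these. Its log2 fold change was -0.90 ± 0.20, or -0.37 ± 0.12 with GC offsets (SE), at 38.8% GC. DESeq2 called 2.96% of all genes lower and 3.52% higher. In the decapping list 4 genes of 16 were negative and 1 positive at an unadjusted p under 0.05, and DESeq2 called 1 lower. Xrn1, the exonuclease that degrades decapped mRNA, was at -0.78 ± 0.19, or -0.43 ± 0.15 with GC offsets (SE). Skiv2l, the Ski complex helicase, at 58.0% GC, was at 0.54 ± 0.15, or 0.23 ± 0.10 with GC offsets (SE), and DESeq2 called 1 gene of the 15 in its list higher. The smallest p of the partners and of the other deadenylases belonged to Tob2 at 0.18 ± 0.17 and Pan3 at -0.30 ± 0.12 (SE). In the interaction 0 genes of these lists passed, with medians of -0.06, 0.10, 0.01, -0.03 and 0.02 and the smallest p at Btg1 (0.28 ± 0.39), Rc3h2 (0.54 ± 0.41), Pabpn1 (-0.53 ± 0.47), Dcps (-0.39 ± 0.34) and Exosc4 (-0.61 ± 0.44, SE).

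The genes whose profile over the 8 libraries was nearest to that of Cnot1 were Tnpo1, Vps4b and Usp14. The measure was the root mean square difference of log2 CPM after centring each gene, which was 0.0465, 0.0565 and 0.0635, against a median of 0.395 over the 9015 genes compared. Within the complex Cnot6 was nearest to Cnot1 at 0.0958, followed by Cnot7 at 0.147, and Cnot10 was farthest at 0.410.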

How the data were processed

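The authors deposited 8 tables of whole-number read counts per gene, not normalized. The submitters' processing notes name the tools STAR, HISAT2, HTSeq, cutadapt, DESeq2 and Picard and the builds mm10 and GRCm38, with no versions or roles, and no strand setting is stated. Reads in no gene (37.6% to 52.1% of counts) or in several genes (0.654% to 0.984%) stayed out of tests, and 0 of the 927 entries for several genes name a member.

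The main test was that of edgeR 4.0.16 under R 4.3.3 (TMM, default low-count filter, robust quasi-likelihood fit, Benjamini-Hochberg adjustment over all genes, threshold 0.05), with the 6 fed libraries for genotype and all 8 for s4U and the interaction. DESeq2 1.42.0 and limma 3.58.1 (voom) were alternatives, as were loess offsets (span 0.3) for exon length or GC. The tests were checked on simulated counts that had no GC trend and no outlying library, so this check does not cover those traits of the real libraries. Lengths, GC and positions came from GENCODE M21 (GRCm38), known for 99.0% of genes tested. Copies were searched with BLAST+ 2.17.0 (at least 90% identity over 100 bases) and paralogs aligned with Biopython 1.88. SE is the fold change over the root of F. Whether replicates are separate animals is not stated. Fed replicate 2 of both genotypes held female RNA and fed replicates 1 and 3 male RNA, so each fed group came from more than 1 animal. Whether replicates 1 and 3 are separate animals is not known. The p-values therefore cover only the spread among these samples, part of which may be technical.

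Deviations from group means of same-numbered Alkbh5-deficient and WT libraries correlated at 0.68, 0.29 and 0.19 (replicates 1, 2 and 3). Differently numbered libraries correlated at -0.56 to 0.35. The value was 0.35 for Alkbh5-deficient replicate 2 with WT replicate 3 and for Alkbh5-deficient replicate 3 with WT replicate 2. By this correlation only the replicate 1 pair stood above all differently numbered ones, and the replicate block was kept as an alternative. No 2 libraries agreed within sampling noise (chi-square per gene at least 3.12). Between same-numbered fed libraries of the genotypes the chi-square per gene was 7.54, 6.07 and 40.4 (replicates 1, 2 and 3). It was at least 7.72 between differently numbered fed libraries, so by this measure the replicate 1 and 2 pairs were the closest. Members and lists were chosen with earlier results of these data known. Named were all members, Alkbh5, Ythdf2, the gene of smallest p per related list where none passed and the 3 profiles nearest to Cnot1 among genes of at least 10 CPM. Cnot9, the Cnot1 and Cnot8 copies, the overlapping genes, Gm26917, Xist and Ddx3y were named after values were seen. The stem and progenitor and the neutrophil markers had genotype medians of -0.06 and -0.15 and s4U medians of 0.13 and 0.74. Of the other marker lists, mast cell, erythroid, B cell, T and NK cell, megakaryocyte and monocyte ones had 0 genes past the edgeR threshold in each comparison, with median genotype log2 fold changes of -0.33, -0.19, -0.16, -0.45, 0.05 and 0.37 and s4U medians of 0.33, -0.01, -0.33, -0.20, 0.50 and 0.13. Between genotypes, 2 of 10 monocyte markers were higher at an unadjusted edgeR p under 0.05. At that threshold 2 of 10 erythroid and 1 of 8 tested mast cell markers were lower, and 0 of the other 3 lists passed. Of all genes 1.13% passed in either direction. All 8 tested mast cell markers had a negative value. Whether the cell makeup differed between genotypes was not tested.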

Additional observations from a re-analysis of the deposited data

How the results depend on the processing

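The genotype count of 0 members was 0 under all 11 other settings and with any fed library left out, and the s4U count of 0 became 1 without the low-count filter (Cnot4), 3 with DESeq2 and 6 with voom; the cause was not tested. Leaving out 1 library kept it at 0. The members' s4U median moved to -0.31 with length and -0.12 with GC offsets. The replicate block changed no call; the block gave a median of 0.11, and 0.07 with GC offsets, which were chosen after seeing the data.

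Fold changes close to 0 changed sign under some settings. For genotype, Cnot10 was at 0.03 with voom, Cnot1 at -0.01 with length offsets, and Cnot4 and Cnot7 at -0.11 and -0.13 with GC offsets and at -0.13 each with the replicate block and GC offsets. For s4U, Cnot8 was at 0.00 with RLE size factors and with DESeq2, and at 0.01 with GC offsets and in the Alkbh5-deficient libraries alone. In the interaction, Cnot8 was at -0.01 without the low-count filter and -0.08 with voom, Cnot3 at -0.02 and Cnot10 at 0.01 with voom, and Cnot7 at -0.07 and Cnot11 at 0.02 with GC offsets. The cause was not tested.

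With 1 library left out at a time, genotype values ranged from -0.08 to 0.21 for Cnot1, -0.03 to 0.53 for Cnot2, -0.03 to 0.15 for Cnot3, -0.02 to 0.29 for Cnot4, 0.05 to 0.43 for Cnot6, 0.16 to 0.56 for Cnot6l, -0.01 to 0.28 for Cnot7, -0.08 to 0.30 for Cnot8 and -0.20 to 0.03 for Cnot10. Their median ranged from 0.02 to 0.24, and 1 member (Cnot6l) had an unadjusted p under 0.05 without WT fed replicate 2. The s4U values ranged from -0.10 to 0.08 for Cnot8 and -0.07 to 0.02 for Cnot11, and without the WT unlabelled library 2 members (Cnot4 and Cnot6l) in place of 6 had an unadjusted p under 0.05. Interaction values ranged from -0.06 to 0.12 for Cnot3, -0.14 to 0.23 for Cnot8, -0.19 to 0.03 for Cnot10 and -0.15 to 0.08 for Cnot11. The genotype difference in log2 ratio ranged from -0.14 to 0.01 for Cnot6 over Cnot6l and from -0.28 to 0.14 for Cnot7 over Cnot8.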
